A study of Homo sapiens with 8 samples.

Results

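The neuropilins NRP1 and NRP2, the semaphorins and vascular endothelial growth factors (VEGF) that bind them, and the plexins and VEGF receptor that signal with them were followed through the DAXX, DNMT1 and H3(Lys4) ChIP-Seq peak lists of PC3 cells. The group held 10 of 19785 protein-coding genes, namely NRP1, NRP2, PLXNA1, PLXNA2, SEMA3A, SEMA3C, SEMA3F, VEGFA, VEGFC and KDR. It was chosen on measured values of these same lists, because NRP1 held their first DAXX peak, so the places, counts and sharing of peaks at NRP1 are descriptions and not tests. A gene was given every peak inside it or within 50 kb of either end. This gave 98 of 42876 K/D DAXX peaks and 136 of 59761 WT DAXX peaks, 3 of 595 K/D and 4 of 2234 WT DNMT1 peaks, and 133 of 72181 K/D and 135 of 72064 WT H3(Lys4) regions.

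PC3 is a prostate cancer (PCa) line from a bone metastasis. The K/D cells carried a stable lentiviral DAXX shRNA and grew with puromycin (2 μg/ml), whereas the WT cells are labelled wild type and the series text names a control shRNA line, so WT can stand for either. Chromatin was precipitated with antibodies to DAXX, a histone chaperone and co-repressor, to DNMT1, the maintenance DNA methyltransferase, and to histone H3 at Lys4 (labelled DMHH3(Lys4), here H3(Lys4)), with an input for each line. Each group was 1 library, so no difference between K/D and WT cells has a replicate check, and the 95% intervals below are exact binomial (Clopper-Pearson) intervals that cover counting error only. The libraries held 12050101 to 18705056 tags in K/D cells and 14391288 to 16248943 in WT cells. Of the DAXX tags, 6.83% lay in peaks in K/D cells and 15.8% in WT cells. An H3(Lys4) region lay within 1 kb of a transcription start site (TSS) at 5 of 5 epithelial marker genes in both cell types, at 0 of 4 prostate luminal genes in K/D cells and 1 of 4 in WT cells, and at 0 of 3 endothelial genes in either.

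Neuropilins are receptors with short cytoplasmic tails that act with partners. Class 3 semaphorins are secreted guidance cues that bind a neuropilin, which then signals through a class A plexin. VEGF ligands bind the same neuropilins, which present them to VEGF receptors such as KDR (also called VEGFR2) on endothelial cells. Many tumour cells also make neuropilins, semaphorins and VEGF. AP-1 is the dimer of Jun and Fos proteins, and its motif TGACTCA is common in enhancers.

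The DNA under the peaks that the results turn on is printed here from the GRCh37 genome (hg19), plus strand, 5′ to 3′. Capitals mark matches, on either strand, to the AP-1 motif TGACTCA, to the nuclear receptor motif AGGTCA, to the RUNX motif TGTGGT and to the hypoxia response core ACGTG, which is also part of the E-box. In lines with no capitals none was found. The earliest WT DAXX peak of each of 6 genes is given first, for both neuropilins, KDR and some of their ligands. Those of PLXNA1, PLXNA2, SEMA3F and VEGFC are not printed.
NRP1 intron 3, WT DAXX place 1, chr10:33553233-33553405: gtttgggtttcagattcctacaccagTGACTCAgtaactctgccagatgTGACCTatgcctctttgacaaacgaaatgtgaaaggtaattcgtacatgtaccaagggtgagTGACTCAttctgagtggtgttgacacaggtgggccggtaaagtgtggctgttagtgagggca
NRP2 intron 10, WT DAXX place 718, chr2:206613536-206613708: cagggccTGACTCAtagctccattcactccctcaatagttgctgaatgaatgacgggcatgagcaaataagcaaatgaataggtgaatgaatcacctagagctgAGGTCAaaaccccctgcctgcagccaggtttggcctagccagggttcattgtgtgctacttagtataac
SEMA3A, WT DAXX place 677, chr7:84041653-84041825: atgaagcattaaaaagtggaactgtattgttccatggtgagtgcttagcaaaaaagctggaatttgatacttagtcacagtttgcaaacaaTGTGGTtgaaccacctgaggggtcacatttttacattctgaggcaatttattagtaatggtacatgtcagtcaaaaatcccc
SEMA3C intron 2, WT DAXX place 765, chr7:80512889-80513061: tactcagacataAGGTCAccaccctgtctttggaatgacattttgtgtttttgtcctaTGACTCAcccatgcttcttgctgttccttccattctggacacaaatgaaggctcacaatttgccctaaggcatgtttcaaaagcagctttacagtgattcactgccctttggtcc
VEGFA downstream, WT DAXX place 1191, chr6:43766685-43766857: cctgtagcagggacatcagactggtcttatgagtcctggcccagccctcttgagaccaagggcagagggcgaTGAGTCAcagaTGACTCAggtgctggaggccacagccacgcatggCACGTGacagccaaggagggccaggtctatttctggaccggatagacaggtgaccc
KDR intron 1, WT DAXX place 12280, chr4:55988543-55988715: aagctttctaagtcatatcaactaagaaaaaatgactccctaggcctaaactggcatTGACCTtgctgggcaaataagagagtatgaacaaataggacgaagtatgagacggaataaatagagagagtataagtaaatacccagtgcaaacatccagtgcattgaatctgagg

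The next DNA shows 2 neighbouring NRP1 peaks of which each was called in only one cell type, the DAXX peak just before the VEGFA start, and 2 DNMT1 peaks of NRP1, one from each cell type.
NRP1 intron 6, K/D DAXX only, place 326, chr10:33541972-33542142: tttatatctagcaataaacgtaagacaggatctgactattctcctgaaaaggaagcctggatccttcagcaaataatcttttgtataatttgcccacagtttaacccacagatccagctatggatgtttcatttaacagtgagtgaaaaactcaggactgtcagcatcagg
NRP1 intron 6, WT DAXX only, place 150, chr10:33541742-33541914: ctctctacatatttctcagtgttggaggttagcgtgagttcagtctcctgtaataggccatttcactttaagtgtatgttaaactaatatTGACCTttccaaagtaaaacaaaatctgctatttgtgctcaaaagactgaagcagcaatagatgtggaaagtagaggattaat
VEGFA upstream, WT DAXX place 39326, chr6:43737433-43737605: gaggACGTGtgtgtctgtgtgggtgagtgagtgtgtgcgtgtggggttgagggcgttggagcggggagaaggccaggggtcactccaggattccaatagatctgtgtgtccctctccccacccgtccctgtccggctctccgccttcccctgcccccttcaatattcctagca
NRP1 intron 9, K/D DNMT1 place 222, chr10:33497657-33497777: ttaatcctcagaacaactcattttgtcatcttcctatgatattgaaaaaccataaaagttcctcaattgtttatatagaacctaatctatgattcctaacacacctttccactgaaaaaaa
NRP1 intron 2, WT DNMT1 place 128, chr10:33618181-33618309: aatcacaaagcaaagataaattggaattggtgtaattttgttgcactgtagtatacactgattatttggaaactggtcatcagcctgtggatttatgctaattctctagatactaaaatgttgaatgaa

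All 10 genes had DAXX peaks in both cell types, and 7 had fewer of them in K/D cells. SEMA3A, an axon repellent that binds NRP1, had 19 DAXX peaks in K/D cells and 32 in WT cells. NRP2 had 6 in K/D and 13 in WT cells, VEGFC had 6 and 12, KDR had 2 and 7, and SEMA3F, the ligand of NRP2, had 1 and 6. PLXNA1 and PLXNA2, the plexin coreceptors, kept their counts at 5 and 14 in both cell types. SEMA3C was the only member with more DAXX peaks in K/D cells (24 against 22 in WT cells). NRP1 had 17 in K/D and 20 in WT cells, and VEGFA 4 and 5. Over all protein-coding genes, 81.5% had a K/D DAXX peak in the same window and 85.4% a WT DAXX peak, and 67.5% of those with a peak in either list had fewer in K/D cells, so the members' counts of 10, 10 and 7 of 10 are near the background. The summed ratio of K/D to WT peaks was 0.721 at the 10 genes and 0.717 over the whole lists.

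**Figure D1:**
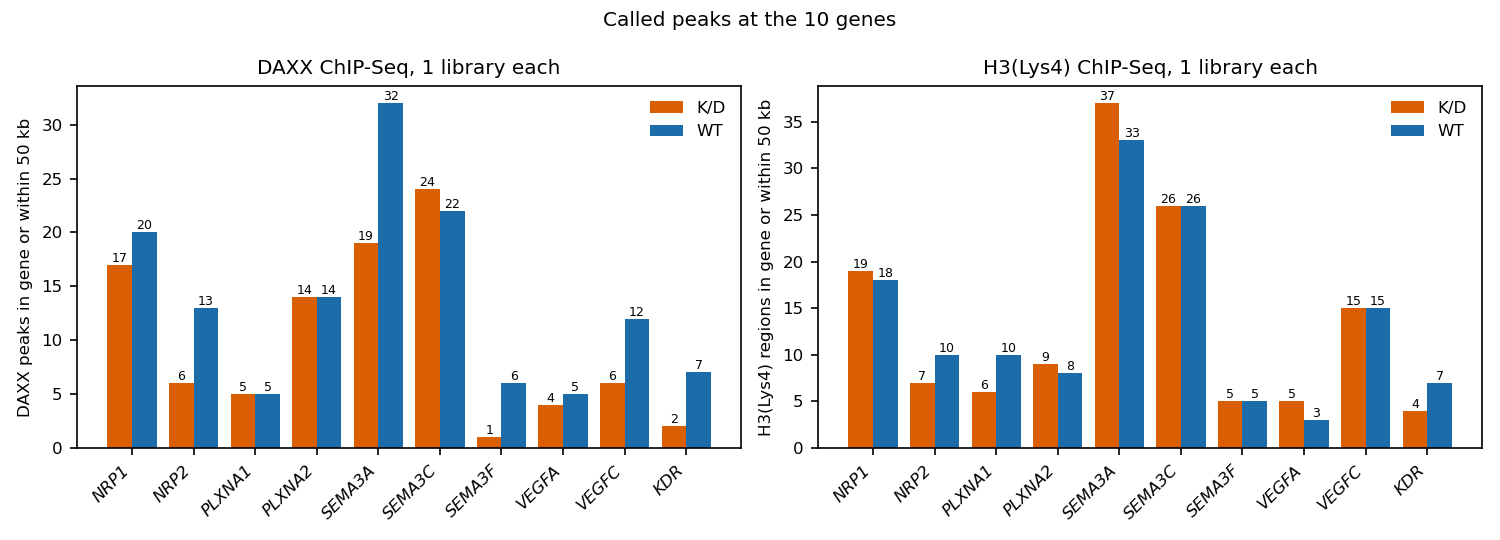
Bars give the number of DAXX peaks (left) and H3(Lys4) regions (right) inside each gene or within 50 kb of it, with K/D cells left of WT cells in each pair and 1 library per bar. SEMA3A stands at 19 DAXX peaks in K/D and 32 in WT cells, while its H3(Lys4) regions number 37 in K/D and 33 in WT cells.

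Larger genes hold more peaks, so counts were also divided by the window length. NRP1 had 6.57 DAXX peaks per 100 kb in K/D and 7.73 in WT cells, and SEMA3C had 8.58 and 7.86. The median over the 10 genes was 3.11 per 100 kb in K/D and 4.89 in WT cells, against 1.72 and 2.53 over all protein-coding genes. Density was above the median of all genes at 8 of 10 members in K/D cells and at 10 of 10 in WT cells. SEMA3F, at 0.746 per 100 kb in K/D and 4.48 in WT cells, and KDR, at 1.36 and 4.76, were the members below it in K/D cells. Most of the DAXX peaks lay inside the genes (70 of 98 in K/D and 97 of 136 in WT cells).

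The lists are in the order in which HOMER wrote them, read here as strongest first, so the place of a peak stands for its strength. The deposited scores are all 1 and give no check of this. The earliest DAXX peak of each member covered a wide span of that order. NRP1 began at place 1 in both lists. NRP2 began at place 480 in K/D and 718 in WT cells, SEMA3C at 544 and 765, and SEMA3A at 925 and 677. The VEGF ligands followed, with VEGFC at 1543 in K/D and 861 in WT cells and VEGFA at 1806 and 1191. PLXNA2 began at 3264 in K/D and 2976 in WT cells, SEMA3F at 14185 and 9445, KDR at 15003 and 12280, and PLXNA1 at 24002 and 23221. The earliest K/D peak was shared with WT cells at 10 of 10 genes, and the earliest WT peak was shared with K/D cells at 8 of 10, the exceptions being SEMA3F and KDR. Early peaks were mostly shared in the whole lists too. With each list cut into 10 equal steps, 97.6% of K/D and 93.7% of WT peaks of the first step were shared. The earliest peaks of SEMA3F, KDR and PLXNA1 lay in later steps, where fewer peaks were shared.

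**Figure D2:**
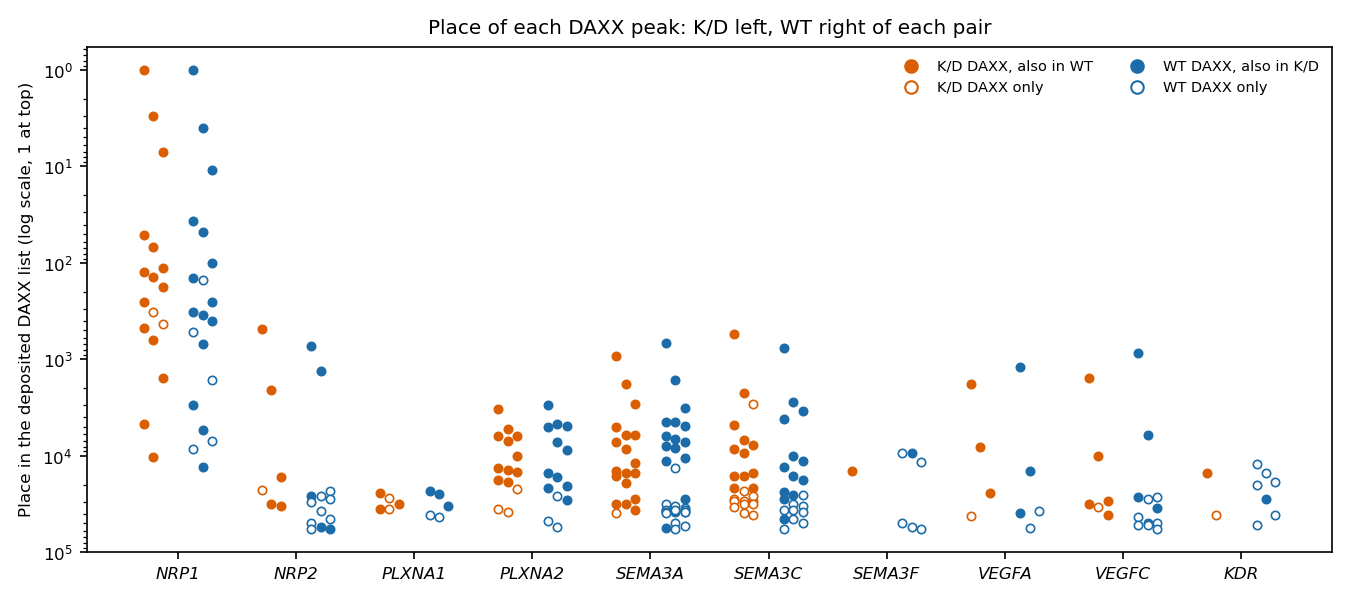
Each point is a DAXX peak of the gene named on the x axis, with its place in the deposited list on a logarithmic y axis (1 at the top), K/D cells left and WT cells right of each pair. Filled points overlap a peak of the other cell type and open points do not. The points of NRP1 fill the upper range, with a median place of 178 in K/D and 331 in WT cells, and those of PLXNA1 begin at 24002 in K/D and 23221 in WT cells.

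NRP1 (ENSG00000099250, chr10:33466420-33625190, minus strand, hg19 with GENCODE annotation) is the receptor of SEMA3A and a VEGF coreceptor. Its peaks had a median place of 178 in the K/D list (the first 0.415%) and 331 in the WT list (0.554%). The next earliest medians were those of PLXNA2, 13729 in K/D and 15754 in WT cells. The peak printed first lies 70.0 kb downstream of the nearest NRP1 TSS and holds the AP-1 motif at 2 positions. Its K/D counterpart had a centre 11 bp away. The second NRP1 peak, place 3 in K/D and 4 in WT cells, lay 125 bp (K/D) and 147 bp (WT) downstream of an NRP1 TSS and touched an exon there, so its DNA is not printed. The next lay downstream of the gene at chr10:33423076-33423246 in K/D cells (place 7) and chr10:33423067-33423239 in WT cells (place 11), nearer to the TSS of ITGB1, the integrin beta-1 gene. The NRP1 peaks called in WT cells only stood at places 150, 525, 1625, 7009 and 8404, and those called in K/D cells only at 326 and 433. Chromosome 10 as a whole held many of the early peaks. It had 30 of the first 100 K/D DAXX peaks and 35 of the first 100 WT DAXX peaks, against 4.66% and 4.80% of the whole lists. Of these early peaks 5 in K/D and 6 in WT cells lay in the NRP1 window, and 4 in K/D and 6 in WT cells lay elsewhere within 5 Mb of NRP1. The copy number of this region was not tested, because no input list was analysed here.

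**Figure D3:**
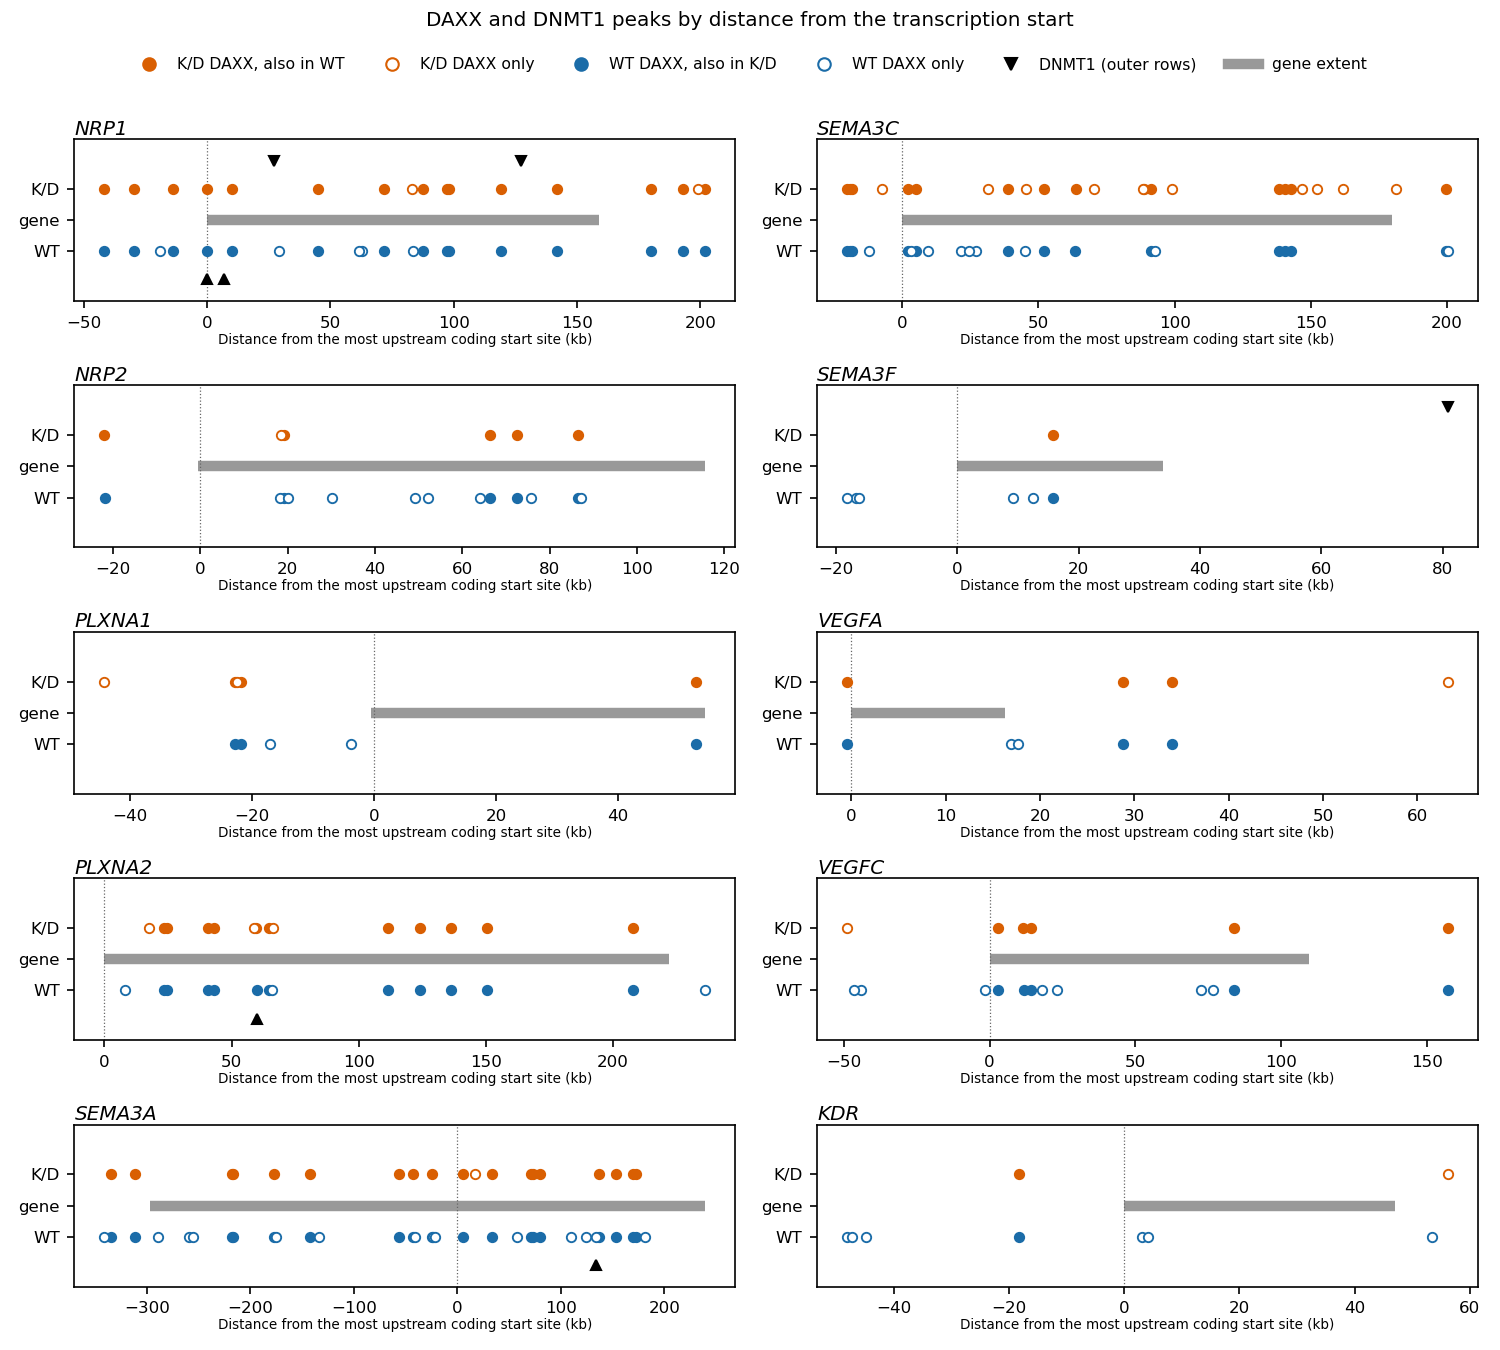
Each panel places the DAXX peaks of a gene by distance in kb from its most upstream coding TSS (dotted line), with K/D cells in the upper row, WT cells in the lower row and the gene as a grey bar. Filled points are shared between the cell types, open points are not, and black triangles are DNMT1 peaks. SEMA3A and SEMA3C differ in their open points, with 1 K/D-only and 14 WT-only peaks at SEMA3A and 11 and 9 at SEMA3C.

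NRP2 (chr2:206546714-206662857, plus strand), the semaphorin 3F receptor and a VEGFC coreceptor, had a pair of strong shared DAXX peaks in its 3′ part. The one in intron 10 stood at place 480 in K/D and 718 in WT cells, and the one in intron 12 (chr2:206619674-206619846) at 2071 in K/D and 1310 in WT cells. Both hold AP-1. The next WT peak, also in intron 10 (chr2:206611172-206611344, place 23166), was not called in K/D cells.

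The plexins carry the signal of neuropilin-bound semaphorins into the cell. PLXNA1 (chr3:126701536-126756232, plus strand) had only late peaks. A pair of shared peaks lay 21.8 and 22.8 kb upstream of its TSS, at places 31348 and 35787 in K/D and 23221 and 24997 in WT cells, and a peak in exon 32 stood at 24002 in K/D and 32780 in WT cells. PLXNA2 (chr1:208195587-208417729, minus strand) had its first 3 WT peaks in intron 4, intron 1 and intron 3, and all were shared, at places 3264, 6253 and 6252 in K/D and 2976, 4704 and 4883 in WT cells. The equal counts of the plexins did not come from the same sites alone, since 2 of 5 PLXNA1 peaks and 3 of 14 PLXNA2 peaks in each list had no counterpart in the other.

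Among the semaphorins, SEMA3A (chr7:83585093-84122040, minus strand) spread its peaks over the longest gene of the group. After the earliest, a peak in intron 3 (chr7:83744891-83745063) stood at place 5019 in K/D and 1621 in WT cells, and one upstream of the gene at 2874 in K/D and 3221 in WT cells. The WT peaks that were not shared came late, and the median place of SEMA3A peaks was 14372 in K/D and 32468 in WT cells. SEMA3C (chr7:80371854-80551675, minus strand) differed from it. Its first 3 WT peaks, in intron 2, intron 12 and upstream, were all shared, at places 544, 2221 and 4816 in K/D and 765, 2773 and 3446 in WT cells, but 11 further K/D peaks were not called in WT cells. SEMA3F (chr3:50192478-50226508, plus strand) had its earliest peaks in intron 2. The WT peaks there stood at places 9445, 9446 and 11583, and only the one at 9446 was also a K/D peak (place 14185).

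The VEGF ligands differed in where their peaks lay. VEGFA (chr6:43737921-43754224, plus strand), the main angiogenic ligand of KDR, had no DAXX peak inside the gene in either cell type. Its strongest peaks lay downstream, 27.1 kb (K/D) and 27.0 kb (WT) from the TSS, at place 1806 in K/D and 1191 in WT cells, with a second at 8093 in K/D and 14304 in WT cells. VEGFC (chr4:177604689-177714076, minus strand) had its strongest peak in intron 1 (chr4:177702379-177702551), at place 1543 in K/D and 861 in WT cells, and a second downstream of the gene at 10148 in K/D and 6044 in WT cells. Intron 1 held 2 more shared sites, at 29332 and 31529 in K/D and 34289 and 26981 in WT cells. The earliest WT-only peak of VEGFC, also in intron 1, stood at place 26980.

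KDR (chr4:55944648-55991762, minus strand) is the main signalling receptor of VEGFA in endothelial cells. Its single shared peak lay upstream, 18340 bp (K/D) and 18369 bp (WT) from the TSS, at place 15003 in K/D and 28004 in WT cells. The 4 earliest WT peaks of KDR, at places 12280, 15148, 18851 and 20172, were not called in K/D cells. The remaining K/D peak was downstream at place 40595.

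Sharing was scored when peaks had at least 1 bp in common, and a peak that was not shared is one that was not called in the other cells, not a site shown to be empty there. Of the K/D DAXX peaks of the 10 genes, 75 of 98 overlapped a WT DAXX peak (76.5%, interval 66.9 to 84.5), against 67.4% of the whole K/D list and 75.9% of K/D peaks of like place (the list cut into 10 steps of equal size and weighted as the members are). Of the WT peaks, 75 of 136 overlapped a K/D peak (55.1%, interval 46.4 to 63.7), against 48.4% of the whole WT list and 57.8% of WT peaks of like place. The members therefore lay near the whole lists once place was taken into account. Without NRP1 the share was 60 of 81 K/D peaks (74.1%) and 60 of 116 WT peaks (51.7%).

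The shares of individual genes lay on both sides of this one, on small counts. At SEMA3A 18 of 19 K/D peaks were also WT peaks (94.7%, interval 74.0 to 99.9, against 77.1% of peaks of like place), and 18 of 32 WT peaks were also K/D peaks (56.2%). At SEMA3C, a semaphorin that signals through both neuropilins, 13 of 24 K/D peaks were shared (54.2%, interval 32.8 to 74.4, against 70.9% of peaks of like place), and 11 were called in K/D cells only. Of the WT peaks of SEMA3C 13 of 22 were shared (59.1%). At PLXNA2 11 of 14 peaks were shared in K/D and 11 of 14 in WT cells. At KDR 1 of 2 K/D peaks and 1 of 7 WT peaks were shared (WT 14.3%, interval 0.361 to 57.9, against 50.1% of peaks of like place). At SEMA3F it was 1 of 1 K/D peaks and 1 of 6 WT peaks (WT 16.7%, interval 0.421 to 64.1, against 48.1%). Both WT intervals hold the share of peaks of like place. At NRP1 15 of 17 K/D peaks (88.2%, against 96.8% of peaks of like place) and 15 of 20 WT peaks (75.0%, interval 50.9 to 91.3, against 90.8%) were shared. The match in place is coarse for NRP1, since the first step reaches far beyond its median places of 178 in K/D and 331 in WT cells.

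The 2 NRP1 peaks of intron 6 printed above show how a strong call can count as not shared. The K/D peak (place 326) and the WT peak (place 150) had centres 229 bp apart with no base in common. NRP2 intron 2 held a similar pair with centres 280 bp apart, at place 22365 in K/D and 27878 in WT cells. SEMA3C intron 2 held one with centres 186 bp apart, at place 2873 in K/D and 35988 in WT cells, and PLXNA2 intron 3 one with centres 266 bp apart. Of the 23 K/D-only peaks of the 10 genes, 6 had a WT peak centre within 1 kb, and of the 61 WT-only peaks 9 had a K/D centre within 1 kb. Most of the peaks that were not shared thus had no near counterpart, and the median distance was 4029 bp from K/D-only and 6604 bp from WT-only peaks.

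**Figure D4:**
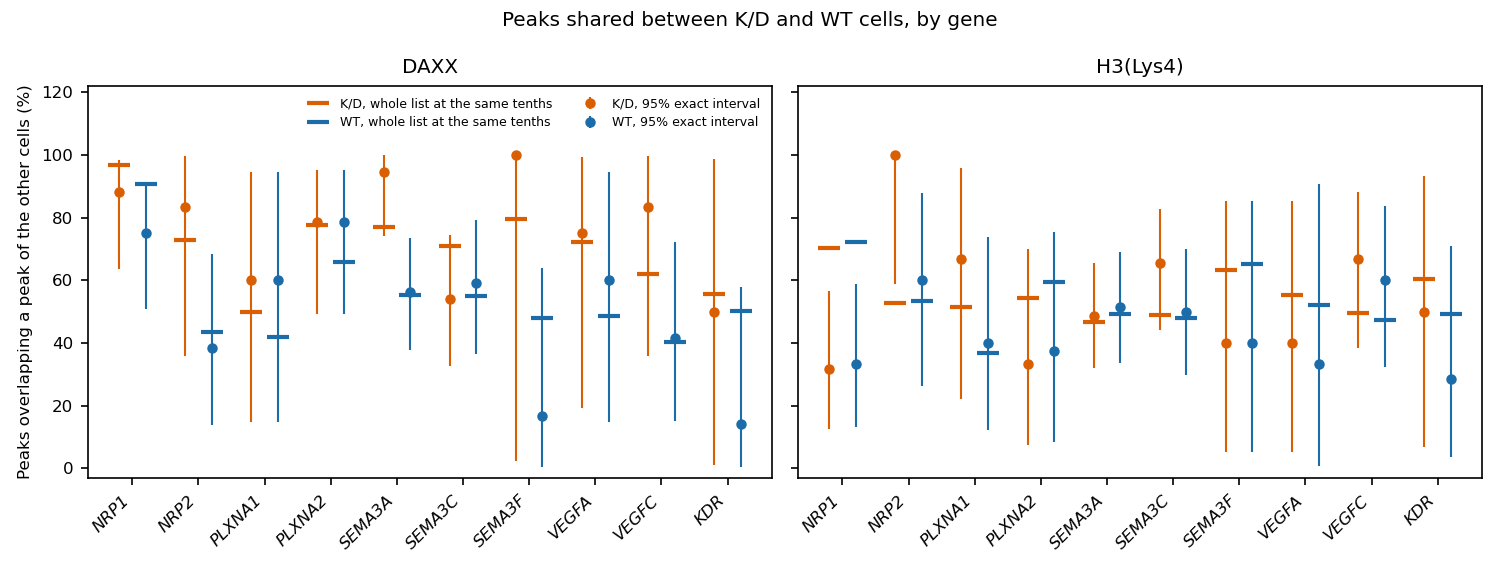
Points give the percentage of peaks of a gene that overlap a peak of the other cell type, for DAXX (left) and H3(Lys4) (right), with K/D left of WT in each pair and bars for the exact 95% binomial interval. Horizontal marks give all peaks of like place. At NRP1 the H3(Lys4) points stand at 31.6% in K/D and 33.3% in WT cells, with marks at 70.4% and 72.4%.

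A DAXX peak lay within 10 kb of a TSS at 5 of 10 members in K/D cells and 9 of 10 in WT cells, against 41.8% and 51.2% of all protein-coding genes. Within 1 kb it was 2 of 10 in K/D and 3 of 10 in WT cells, against 19.2% and 25.7% of all genes. The median distance was 8238 bp in K/D and 3440.5 bp in WT cells, against 15474 and 9219 bp over all genes, which were thus also farther in K/D cells. The VEGFA peak printed above lay 440 bp (K/D) and 429 bp (WT) before the TSS and was shared, though late in both lists (place 24252 in K/D and 39326 in WT cells). At SEMA3C the nearest DAXX peak was 1212 bp before a TSS in K/D cells and 220 bp before it in WT cells, and the WT peak was not shared. VEGFC, the ligand known for lymphatic growth, had its nearest peak 2697 bp after the TSS in K/D and 1445 bp before it in WT cells. KDR had its nearest peak 18340 bp before the TSS in K/D cells and 3133 bp after it, in intron 1, in WT cells. The 2 WT peaks of KDR intron 1 (places 12280 and 18851) had their nearest K/D peak centre 21473 and 22483 bp away. SEMA3A had its nearest peak at 4602 bp in K/D and 4601 bp in WT cells. The members with no peak within 10 kb of a TSS in K/D cells were NRP2, PLXNA1, PLXNA2, SEMA3F and KDR, and in WT cells NRP2 alone (17681 bp in K/D and 17401 bp in WT cells).

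The window also took in DNA of neighbouring genes. Of the DAXX peaks 87 of 98 in K/D and 128 of 136 in WT cells had their nearest coding TSS in the member itself. SEMA3C had 7 K/D and 4 WT peaks nearer to CD36, and NRP1 3 K/D and 2 WT peaks nearer to ITGB1. Upstream of PLXNA1, 2 K/D and 1 WT DAXX peaks lay inside CHCHD6. The annotated extent of SEMA3A reaches far upstream of its coding starts, and 7 of its K/D DAXX peaks and 15 of its WT DAXX peaks lay in that stretch, including the earliest, 216988 bp (K/D) and 216978 bp (WT) before the coding TSS. Near the 50 kb limit, 7 K/D and 9 WT DAXX peaks lay 40 to 50 kb from a member, and 5 K/D and 11 WT peaks lay 50 to 60 kb away.

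DNMT1 peaks were few. NRP1 had 2 in K/D and 2 in WT cells, SEMA3F had 1 in K/D cells, and PLXNA2 and SEMA3A had 1 each in WT cells. A DNMT1 peak fell in the window of 2 of 10 members in K/D and 3 of 10 in WT cells, against 4.08% and 11.4% of all protein-coding genes. These shares were not matched for window length, so they do not show an excess. The WT peaks lay in the long windows of SEMA3A (637 kb), PLXNA2 (322 kb) and NRP1 (259 kb), while SEMA3C (279.8 kb) had none. None of the 3 K/D peaks overlapped a WT DNMT1 peak and none of the 4 WT peaks overlapped a K/D DNMT1 peak, against 32.3% and 8.59% shared in the whole lists, and with so few peaks the upper limits of the intervals were 70.8% and 60.2%. The K/D DNMT1 peaks of NRP1 lay in intron 9 (place 222, chr10:33497657-33497777) and intron 2 (place 307, chr10:33597820-33597940), on no DAXX peak and no H3(Lys4) region. The WT DNMT1 peaks of NRP1 lay elsewhere. The first (place 98, chr10:33625014-33625142) was 112 bp from the TSS on the DAXX peak of place 4, and the other (place 128) lay in intron 2 inside an H3(Lys4) region. The K/D peaks were 29.8% and 24.0% G+C and the WT peaks 57.4% and 31.8%. The WT DNMT1 peak of SEMA3A intron 4 (place 2185, chr7:83690235-83690363) lay on a DAXX peak and an H3(Lys4) region, and the one of PLXNA2 intron 3 (place 850) on neither. The K/D peak in the SEMA3F window (place 276) was 250 bp from the TSS of the neighbouring gene GNAI2. Just outside the KDR window, 58.8 kb upstream, a DNMT1 peak was shared between the lists at place 71 in K/D and 16 in WT cells. Another WT DNMT1 peak, 58.5 kb upstream (place 182), was not shared.

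H3(Lys4) regions numbered nearly the same in both cell types, but wide regions were fewer in K/D cells, at the 10 genes as over the whole lists. Every member had a region in its window in K/D and in WT cells, against 90.1% and 90.4% of all protein-coding genes. The regions of the 10 windows covered 129 kb in K/D and 178 kb in WT cells, a ratio of 0.725, against 0.825 over the whole lists. Cover was lower in K/D cells at 8 of 10 genes, and the widest region was narrower at 9 of 10, SEMA3A being the exception (6216 bp in K/D and 5090 bp in WT cells). Over all protein-coding genes with a region in either list, cover was lower in K/D cells at 71.3% and the widest region narrower at 69.6%, so both counts lie near the background. NRP1 had 12.6 kb in K/D and 20.4 kb in WT cells, and NRP2 7.33 and 17.8 kb. PLXNA1 had 4.85 kb in K/D and 9.51 kb in WT cells. PLXNA2 (8.43 and 7.97 kb) and VEGFA (4.06 and 4.03 kb) were the exceptions in cover. Regions wider than 2 kb made up 11 of 133 in K/D cells (8.27%, interval 4.20 to 14.3) and 25 of 135 in WT cells (18.5%, interval 12.4 to 26.1), against 6.18% and 11.6% of the whole lists. Tags in H3(Lys4) peaks were 15.1% of the K/D library and 23.9% of the WT library, and the part of this in the widths was not tested.

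**Figure D5:**
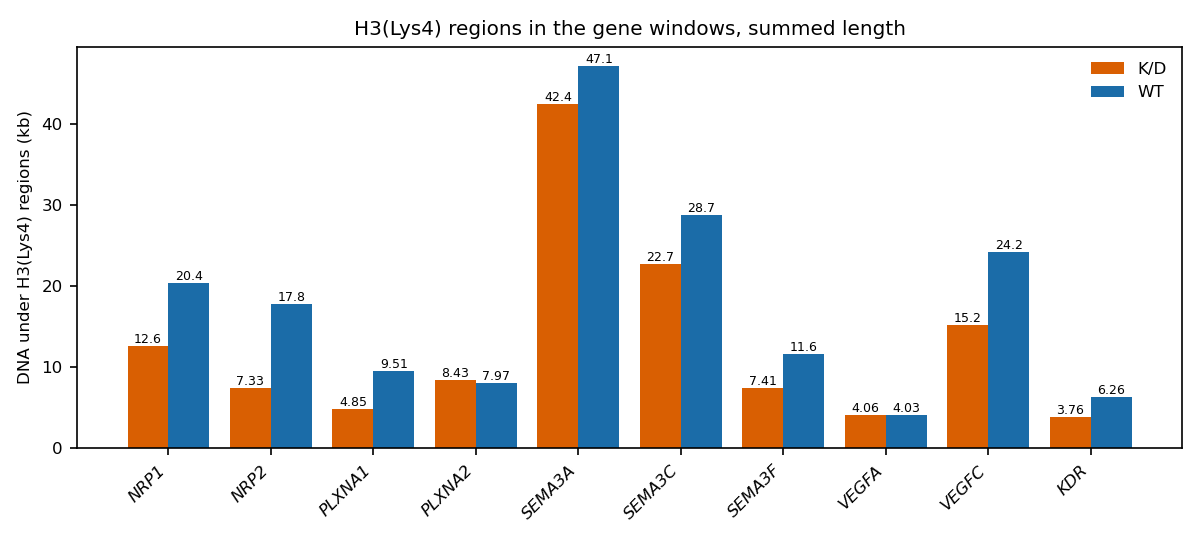
Bars give the summed length in kb of the H3(Lys4) regions in each gene window, K/D cells left of WT cells, 1 library per bar. NRP2 shows 7.33 kb in K/D and 17.8 kb in WT cells, and SEMA3A, the longest window, shows 42.4 and 47.1 kb.

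At the starts the widths went both ways. A region was centred within 1 kb of a TSS at 4 of 10 members in K/D and 7 of 10 in WT cells, against 42.4% and 46.3% of all protein-coding genes. Within 10 kb there was one at every member in both cell types, against 70.4% of all protein-coding genes in K/D and 71.3% in WT cells. At 8 members a K/D region with an edge within 1 kb of a TSS overlapped a WT region. Set against the widest WT region it overlapped, it was the narrower one at 5 of them and the wider one at 3. At NRP2 the K/D region was 2801 bp wide (chr2:206548578-206551378) and began 563 bp past the last annotated TSS, whereas the WT region was 5956 bp wide (chr2:206545475-206551430) and covered the starts. The K/D region was also narrower at PLXNA1 (1334 bp in K/D and 3397 bp in WT cells), PLXNA2 (501 and 929 bp), VEGFA (501 and 2600 bp) and VEGFC (1288 and 2475 bp). It was wider at SEMA3A (6216 bp in K/D cells, ending 85 bp from the TSS, and 5090 bp for the widest WT region it overlapped), SEMA3C (2419 and 1421 bp) and KDR (1061 and 501 bp). The SEMA3A K/D region also overlapped another WT region (chr7:83822349-83826182), which covered the SEMA3A starts, so WT cover there was split over separate calls. All 7 K/D regions of NRP2 overlapped a WT region, and 6 of 10 WT regions overlapped a K/D region. At SEMA3F the WT region over the TSS (chr3:50191506-50195840, place 722) had no K/D counterpart, and the nearest K/D region was centred 6552 bp away. At NRP1 the largest WT region, in intron 2 (chr10:33613961-33619544, 5584 bp, place 14), overlapped a K/D region of 1079 bp (chr10:33613356-33614434, place 8069). It holds the WT DNMT1 peak of place 128. A region of 501 bp was centred 447 bp before the NRP1 TSS in K/D cells and had no WT counterpart. Only 6 of 19 K/D regions of NRP1 (31.6%, interval 12.6 to 56.6) and 6 of 18 WT regions (33.3%, interval 13.3 to 59.0) were shared, against 70.4% and 72.4% of regions of like place. The match in place is coarse for the WT regions of NRP1, whose median place was 1289, the first 1.79% of the list. Over the 10 genes 71 of 133 K/D regions (53.4%) and 63 of 135 WT regions (46.7%) were shared, against 48.2% and 45.8% of the whole lists and 53.3% and 52.6% of regions of like place.

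DAXX peaks lay on an H3(Lys4) region of the same cells at 36 of 98 sites in K/D (36.7%, interval 27.2 to 47.1) and 49 of 136 in WT cells (36.0%, interval 28.0 to 44.7), against 28.7% and 37.4% of the whole lists. SEMA3A had the largest number, 11 of 19 in K/D and 17 of 32 in WT cells. NRP1, whose peaks came earliest, had 2 of 17 in K/D and 4 of 20 in WT cells. The gap to the nearest region, 0 for a peak on it, was at most 1 kb for 58.2% of the K/D DAXX peaks and 61.8% of the WT DAXX peaks of the 10 genes, against 52.7% and 56.9% of the whole lists. NRP1 had 7 of 17 such peaks in K/D (41.2%) and 13 of 20 in WT cells (65.0%), with median gaps of 3086 and 164 bp. VEGFC had 6 of 6 such peaks in K/D and 8 of 12 in WT cells, and VEGFA had 2 of 4 in K/D and 0 of 5 in WT cells.

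Each motif was looked for on either strand in the 100 bp to each side of a peak centre. AP-1 (TGACTCA) was found at 39 of 98 K/D DAXX peaks (39.8%, interval 30.0 to 50.2) and 60 of 136 WT DAXX peaks (44.1%, interval 35.6 to 52.9), against 35.4% and 36.2% of the whole lists. By gene, the WT peaks with it ran between 6 of 22 at SEMA3C (27.3%) and 4 of 5 at PLXNA1, with 35.0% at NRP1 (7 of 20) and 69.2% at NRP2 (9 of 13). In WT cells it was in 35 of 75 shared peaks (46.7%) and 25 of 61 WT-only peaks (41.0%), against 40.4% and 32.2% of such peaks in the whole list. In K/D cells it was in 34 of 75 shared peaks (45.3%) and 5 of 23 K/D-only peaks (21.7%), against 40.2% and 25.3% of such peaks in the whole list. The NRP1 pair of intron 6 had no AP-1 motif in either printed peak. The nuclear receptor motif was in 33 of 98 K/D peaks (33.7%) and 40 of 136 WT peaks (29.4%), against 35.5% and 30.9% of the whole lists, and the RUNX motif in 22.4% and 20.6%, against 19.5% and 20.1%. The hypoxia core ACGTG was in 14 of 98 K/D peaks (14.3%) and 21 of 136 WT peaks (15.4%, interval 9.82 to 22.6), against 10.3% and 10.4% of the whole lists. Both printed VEGFA peaks hold it, and VEGFA is a textbook hypoxia-induced gene. The FOX motif TGTTTAC was in 4 of 98 K/D peaks (4.08%) and 4 of 136 WT peaks (2.94%, interval 0.807 to 7.36), against 7.64% and 8.18%. A match says that the letters are present and not that a factor is bound.

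The rest of the pathway was read from a list of 30 genes (other semaphorins, plexins, VEGF ligands and receptors, and the neuropilin partner GIPC1). DAXX peaks lay in the window of 28 of 30 in K/D and 29 of 30 in WT cells (81.5% and 85.4% of all protein-coding genes), with 140 and 212 peaks in all, of which 93 WT peaks were shared (43.9%, against 48.4% of the whole list). The median density was 2.02 per 100 kb in K/D and 3.35 in WT cells, against 1.72 and 2.53 over all protein-coding genes. SEMA5A had 15 peaks in K/D and 28 in WT cells, SEMA4B 12 and 18, PLXNA4 14 and 17, SEMA6D 6 and 14, SEMA3D 11 and 12, and GIPC1 5 and 12. The 3 genes that follow were named after their values were seen. PLXNC1 had 0 in K/D and 5 in WT cells, FLT1, the other VEGFA receptor, had 7 in K/D and 4 in WT cells, and FLT4, the VEGFC receptor, had none in either. DNMT1 peaks lay only at SEMA3B in K/D cells (1), and at SEMA5A (2), SEMA4F (1) and GIPC1 (1) in WT cells. SEMA3B lies near SEMA3F on chromosome 3 and their windows overlap, so the K/D DNMT1 peaks given to them are not separate findings. By the counts in all 6 lists, the genes most like NRP1 were TANC2 (22 DAXX peaks in K/D and 22 in WT cells, at a Euclidean distance of 0.57 in log2(count + 1)), RGL1 (15 and 21, 0.62) and MIPOL1 (12 and 19, 0.64).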

How the data were processed

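The deposited files are peak lists on hg19 from single ChIP-Seq libraries of PC3 cells. The authors called bases with CASAVA 1.8.2, mapped reads with Bowtie2 2.1.0 and called peaks with HOMER 4.6 on each library against the input of the same line (at least 4-fold over input, p of 1e-04 over input, and 4-fold over the surrounding 10 kb, per the file headers). The lists hold positions and a score that is 1 for every peak as deposited by the authors, so the deposited order was read as the order of strength. The 113 peaks on other contigs were left out. Genes and TSS came from GENCODE release 44 mapped to GRCh37, and DNA from GRCh37. Per the file headers, the tags in peaks were 0.07% (K/D) and 0.26% (WT) of the DNMT1 libraries.

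The members and lists were chosen with earlier results of these data known. Peaks were assigned to protein-coding genes with 50 kb on each side, and were shared if they had at least 1 bp in common. With 1 library per group no test was made. Shares have exact (Clopper-Pearson) 95% intervals, which cover counting error only. They treat the peaks as independent, although many lie close together in the same gene window. Motifs (12 in all, of which those with results are named) were counted within 100 bp of the centre. Genes named were the 10 members, with their first 3 WT DAXX peaks, every DNMT1 peak, DAXX peaks within 1 kb of a TSS and the nearest peaks. Of the pathway list, the 5 genes with most WT DAXX peaks (6 with a tie) and every gene with a DNMT1 peak were named, and for NRP1 the 3 genes nearest in log2(count + 1) over the 6 lists. Alternatives changed the window (gene only, 10 kb, 100 kb), the overlap rule, the part of the list used and the motif window. Scripts were tested on simulated data. Python 3.11.15, numpy 2.4.6, pandas 2.3.3, scipy 1.17.1, pysam 0.24.0 and matplotlib 3.10.9 were used. The input libraries were not analysed here.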

Additional observations from a re-analysis of the deposited data

How the results depend on the processing

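Of 26 alternative values 22 stayed near the reported one. A share was scored as near if it lay inside the exact interval of the reported share, and a count if it lay within a fixed factor of the reported count. For DNMT1 that interval ran from 0 to 60.2% on 4 peaks, so its alternatives could hardly leave it and say little. Restricting both lists to their first 50% left 83 of 136 WT DAXX peaks in the 10 windows and raised the share also called in K/D cells to 73.5%, against 55.9% of the whole lists cut in the same way. These shares were not matched for place, and 25.7% of the members' WT DAXX peaks lay in the first of 10 equal steps of the list. Other settings gave shares of 51.7% to 63.1%. The H3(Lys4) share of WT regions was 18.5% when 50% of each region had to be in common (whole list 23.1%) and 8.15% when centres had to lie within 100 bp (whole list 9.46%), and the cause was not tested. No paired analysis was possible because each group was 1 library. The depth, the inputs and the single libraries limit every comparison of K/D with WT cells, and a region not called may lie just under the caller's threshold.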

Other observations

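The GATA motif AGATAA was in 8 of 23 K/D-only DAXX peaks of the 10 genes (34.8%), against 13.2% of K/D-only peaks in the whole list, and in 12 of 61 WT-only peaks (19.7%), against 11.7%. It was picked out of 12 motifs after its values were seen.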
